A study of Homo sapiens with 6 samples.

Results

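The mRNAs of 50 translation factors were followed in the human pancreatic cancer line PANC-1, an established cell line, after knockdown of the palmitoyltransferase ZDHHC20. They were taken by name from the textbook set of cytosolic initiation, elongation and termination factors, with earlier results of these data known. A minimum mean was the only filter on their values. Of the 50, 49 had a row among the 27394 genes of the expression table, and all 49 averaged 1 or more over the 6 libraries, the level required of the 22189 genes tested. EEF1G was not analysed here. Total RNA was sequenced from 3 shControl libraries, made from cells carrying a control shRNA, and from 3 shZDHHC20 libraries, made from cells carrying an shRNA against ZDHHC20. Both groups were grown in the same serum-containing medium and differ in the labels only by the shRNA. The labels name no time after infection and no particular one of the study's shRNAs. The study speaks of biological replicates for its in vitro work in general, but the labels do not tie these libraries to separate cultures, so the p-values measure the spread between these libraries, which may be technical.

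Translation of most mRNAs begins when eIF4F, built from the cap-binding protein eIF4E, the scaffold eIF4G and the helicase eIF4A, brings the mRNA to a small ribosomal subunit carrying eIF3, eIF1, eIF1A and the eIF2 complex with initiator tRNA. The 4E-BPs compete with eIF4G for eIF4E, eIF2B recharges eIF2 with GTP, and after subunit joining eEF1A and eEF2 drive elongation until the release factors act. The control of these steps by mTOR and by eIF2 phosphorylation is among the best-studied layers of growth control in tumour cells. The values here are mRNA levels and give no measure of translation itself. In bulk RNA, fewer cells of a type and less RNA per cell cannot be told apart.

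ZDHHC20 itself had normalized counts of 2001, 2033 and 1940.4 in shControl 1 to 3 and of 872, 779 and 893 in shZDHHC20 1 to 3. The knockdown libraries were all below the control libraries, at 42.6% of the control mean (log2 fold change -1.23, SE 0.0649, adjusted p = 4.36e-07, limma). KRT8, KRT18 and KRT19, the keratins of epithelial cells, were abundant in every library, with means of 5917 to 56187 in shControl, whereas KRT7 averaged 86.5. The summed level of the 6 epithelial markers was 80928 to 82930.2 in shControl and 75945 to 77258 in shZDHHC20, while EPCAM averaged 72.4 and 525 and CDH1 287 and 629, both higher after knockdown (adjusted p = 6.7e-07 and 6.62e-06). The summed level of the immune markers with a row (2 of 5, PTPRC and CD14) was 26.0 to 36.4 in shControl and 23.3 to 45.1 in shZDHHC20. The endothelial markers with a row (3 of 4, with VWF between 0 and 2.02) summed to 40.05 to 55.6 and 32.9 to 47.7. The fibroblast markers with a row (4 of 6) summed to 3967 to 4041 and 3194 to 3476, nearly all of it COL1A1, while LUM was at 0 in every shControl library. The values of a library summed to between 17083277 and 18007664. Replicate 2 of shZDHHC20 stood apart from its group: over the 10908 genes averaging 100 or more, the SD of its log2 difference from replicates 1 and 3 was 0.242 and 0.261, against 0.144 between those 2 and 0.139 to 0.155 between control libraries. Mitochondrial transcripts were 4.01% of its signal and 5.28% to 5.52% of that of the other libraries.

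Of the 49 factors, 3 were higher and 7 were lower after ZDHHC20 knockdown at an adjusted p under 0.05 (limma), and the other 39 did not pass. This is 20.4% of the factors, where 11.5% of all genes tested passed (4.61% higher, 6.84% lower, a balance that turned to 1466 genes higher and 1120.0 lower with equal library totals) and 21.7% of the genes averaging 100 or more (8.41% higher, 13.3% lower). The share of the factors was therefore close to that of other well-expressed genes. The largest falls were in regulators rather than in core factors: EIF4EBP1, the gene of the eIF4E inhibitor 4E-BP1, and EEF2K, the gene of the kinase that inhibits eEF2. The other 8 changes were of 1.11- to 1.19-fold. No factor met the study's own criteria of an unadjusted p under 0.01 with a change of at least 1.5-fold, which 2.45% of all genes and 2.65% of genes averaging 100 or more met. The median log2 fold change of the 49 factors was -0.05, beside -0.01 for all genes averaging 100 or more, and it was 0.01 with quantile normalization, so the set as a whole had no direction that held under each scaling. Values of the groups did not overlap for 20 factors (6 higher, 14 lower), 40.8% of the set, beside 42.6% of genes averaging 100 or more (28.6% of all genes). An unadjusted p under 0.05 was reached by 20 factors (6 higher, 14 lower), beside 39% of genes averaging 100 or more and 23.8% of all genes.

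**Figure D1:**
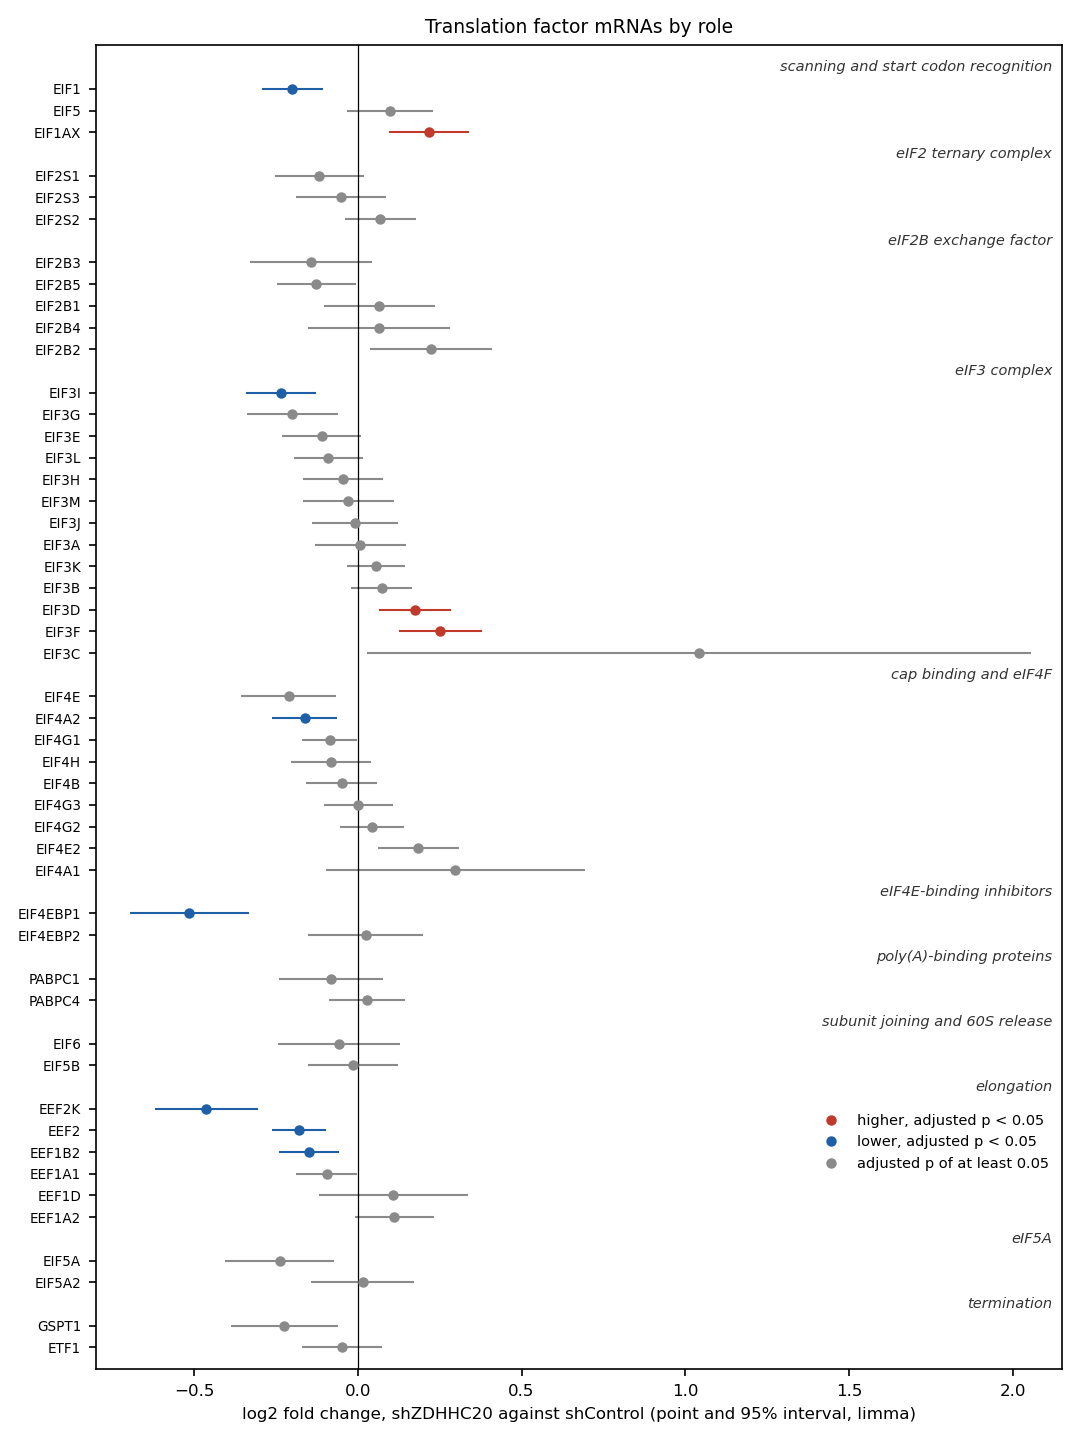
The log2 fold change of each of the 49 factors (x axis, point with 95% interval from limma, shZDHHC20 against shControl, n = 3 libraries a group), grouped by role. EIF4EBP1 and EEF2K lie at -0.51 and -0.46, the other called factors between -0.23 and 0.25, and EIF3C has an interval from 0.03 to 2.06.

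The number called depended on the libraries. Without shControl 1, 2 or 3 it was 2, 5 or 2, where 1233, 1283 and 1233 of all genes passed, beside 2541 with all libraries. Without shZDHHC20 1 or 3 it was 3 or 7, where 1375 and 1773 of all genes passed. Without shZDHHC20 2 it was 27 (12 higher, 15 lower). There 20% of all genes passed, and 38.3% of those averaging 100 or more. When the spread of each gene was moderated toward 1 common value instead of a trend with expression, no factor passed with limma (13 had an unadjusted p under 0.05), and the smallest adjusted p was 0.0968, for EEF2K. EIF4EBP1 and EEF2K kept their calls in the other 16 of 17 alternative analyses, and each of the other 8 lost its call in 3 to 10 of them, while all 10 kept their sign in all 17.

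The largest fall was in an inhibitor of eIF4E, and the related inhibitor gene did not pass the test. EIF4EBP1 had normalized counts of 904, 891 and 865 in shControl 1 to 3 and of 677, 652 and 542 in shZDHHC20 1 to 3. Every knockdown library was below every control library, and replicate 3 was the lowest. The mean was 887 ± 19.97 in shControl and 624 ± 72.0 in shZDHHC20 (SD, n = 3). The log2 fold change was -0.51 (SE 0.0841, adjusted p = 0.00147, limma), and the 95% interval of the change ran from -38.3% to -20.6%. EIF4EBP2, which encodes the second 4E-BP measured, had 1585, 1694 and 1656 in shControl and 1779, 1436 and 1830.4 in shZDHHC20. Its groups overlapped, with replicate 2 below and replicates 1 and 3 above all controls, and it did not pass (log2 fold change 0.02, adjusted p = 0.902). Within each library the log2 ratio of EIF4EBP1 to EIF4EBP2 was -0.81, -0.93 and -0.94 in shControl and -1.39, -1.14 and -1.76 in shZDHHC20. The ratio was lower in all 3 knockdown libraries, by 0.54 on average.

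Of the cap-binding and eIF4F group, 1 of 9 members passed. EIF4A2, which encodes an eIF4A helicase paralog, had 5513, 5812 and 5579.8 in shControl and 5012, 4923 and 5167 in shZDHHC20. All knockdown libraries were lower, at 89.3% of control (log2 fold change -0.16, SE 0.0456, adjusted p = 0.0348). This call was lost in 8 of the 17 alternative analyses, among them quantile normalization (adjusted p = 0.0531, limma) and equal library totals (adjusted p = 0.0831, limma). EIF4E, the gene of the cap-binding protein that 4E-BP1 holds, had 893, 855 and 837 in shControl and 705, 773 and 757 in shZDHHC20. The groups did not overlap, but the adjusted p was 0.0631 at a log2 fold change of -0.21. EIF4E2 encodes 4EHP, a cap-binding homologue that does not bind eIF4G and is known from translational repression. It had 1242, 1233 and 1269 in shControl and 1367, 1487 and 1405 in shZDHHC20, higher in each, with an adjusted p of 0.0573 at a log2 fold change of 0.19. The log2 ratio of EIF4E to EIF4E2 was -0.48, -0.53 and -0.60 in shControl and -0.96, -0.94 and -0.89 in shZDHHC20, so the knockdown libraries were lower by 0.40 without overlap. The ratio of EIF4EBP1 to EIF4E, inhibitor to target, was also lower in every knockdown library, by 0.30, and by 0.19 when shZDHHC20 replicate 3 was left out. EIF4G1, the main scaffold, had a log2 fold change of -0.09 (adjusted p = 0.202), turning to 0.03 with quantile normalization. EIF4G3, its paralog, was at 0.00 (adjusted p = 0.988). Their log2 ratio lay between 2.08 and 2.09 in shControl and between 1.93 and 2.07 in shZDHHC20, and the difference of -0.09 was -0.05 without shZDHHC20 replicate 1.

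In all, 8 ratios of related factors were compared by a two-sided exact permutation test over the 6 libraries, which cannot give a p below 0.1. The groups did not overlap in 5 of them, EIF4EBP1/EIF4EBP2, EIF4E/EIF4E2, EIF4EBP1/EIF4E, EEF1A1/EEF1A2 and EIF4G1/EIF4G3, each with this smallest p of 0.1 and an adjusted p of 0.16 over the 8. None can therefore pass a threshold of 0.05 in this design. EEF1A1/EEF1A2 was 5.91, 6.07 and 6.02 in shControl and 5.77, 5.79 and 5.81 in shZDHHC20, lower by 0.21. PABPC1/PABPC4 and EIF5A/EIF5A2 overlapped, with differences of -0.11 and -0.25. Without shZDHHC20 replicate 2 these were -0.04 and -0.43, and without replicate 3 that of EIF5A/EIF5A2 was -0.15. EIF4A1/EIF4A2 overlapped too, with a difference of 0.46, but EIF4A1 was listed at only 63.3 to 109 and shares exons with the readthrough gene SENP3-EIF4A1 and sequence with processed pseudogenes, so its level is uncertain.

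Of the 6 genes of the elongation role measured, 3 passed, all lower. They were the factors EEF2 and EEF1B2 and the regulator EEF2K, whose product inhibits eEF2. EEF2K had 1336, 1307 and 1552 in shControl and 1039, 1038 and 960.4 in shZDHHC20. The 3 knockdown libraries were close together and all below the controls, of which replicate 3 was the highest. Its mean was 1398 ± 134 in shControl and 1012 ± 44.9 in shZDHHC20 (SD, n = 3). The log2 fold change was -0.46 (SE 0.0732, adjusted p = 0.00117), and the 95% interval of the change ran from -34.96% to -19.03%. EEF2, which encodes the translocation factor that this kinase phosphorylates, had 34741, 33709 and 34796 in shControl and 30053, 30855 and 30225 in shZDHHC20. It too fell in every library, by 0.18 on the log2 scale (SE 0.0382, adjusted p = 0.00805). EEF1B2, a subunit of the exchange factor that recharges eEF1A, had 6361, 6331 and 6437 against 5841, 5637 and 5783. The groups did not overlap (log2 fold change -0.15, SE 0.0427, adjusted p = 0.0394). With quantile normalization the calls of EEF2 and EEF1B2 were lost, with log2 fold changes down to -0.05 and -0.11.

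EEF1A1 encodes the factor that delivers aminoacyl-tRNA and had the highest mean normalized count of all genes tested, without correction for transcript length. It had 256662, 257781 and 257755 in shControl and 244249, 227511 and 251655 in shZDHHC20. All knockdown libraries were lower, replicate 2 the most, and the change did not pass (log2 fold change -0.10, adjusted p = 0.196). Without replicate 2 the change was smaller, at -0.05, but passed (adjusted p = 0.00511), and it also passed with robust moderation. Its paralog EEF1A2 had 4274, 3839.6 and 3969 in shControl and 4462, 4100.3 and 4489 in shZDHHC20, overlapping, with a log2 fold change of 0.11 (adjusted p = 0.246). Summed, the 6 elongation mRNAs took 1.69% to 1.70% of the signal in shControl and 1.59% to 1.66% in shZDHHC20, a sum that EEF1A1 dominates. Cytosolic ribosomal protein mRNAs took 4.80% to 4.87% in shControl and 4.47%, 4.79% and 4.44% in shZDHHC20 1 to 3. Of these 79 genes, 26 passed as lower and 1 as higher (34.2% in all). Among genes averaging 100 or more, 13.3% passed as lower and 8.41% as higher. Calls of the ribosomal protein genes under other scalings are not given here. The 9 mRNAs of cap binding and eIF4F took 0.552% to 0.556% in shControl and 0.557% to 0.573% in shZDHHC20. Their summed normalized count did not rise, averaging 99550.8 in shControl and 99024.8 in shZDHHC20. EIF4G2, averaging 53701 over the 6 libraries, holds the largest part of this sum. The library totals that divide the sum were smaller in shZDHHC20, at 17083277 to 17746705 against 17962383 to 18007664. All 49 factors together took 3.01% to 3.02% and 2.88% to 3.03%, overlapping.

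**Figure D2:**
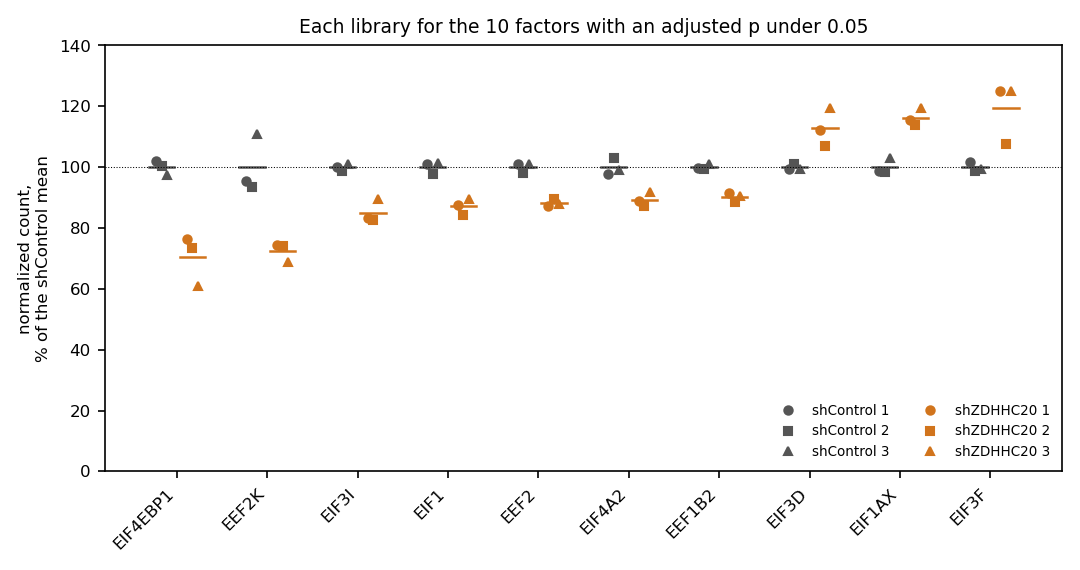
The normalized count of each library as a percentage of the shControl mean (y axis from 0) for the 10 factors with an adjusted p under 0.05. Grey symbols are shControl and orange symbols shZDHHC20 libraries 1 to 3, and lines are group means. Group means of shZDHHC20 range from 70.3% for EIF4EBP1 to 119% for EIF3F, and no factor has overlapping groups.

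Of the 3 factors of scanning and start codon recognition, 1 passed as lower and 1 as higher. EIF1, whose product guards the stringency of start codon choice, had 8804, 8534 and 8829.8 in shControl and 7631, 7354 and 7803 in shZDHHC20. It was lower in each knockdown library (log2 fold change -0.20, SE 0.0434, adjusted p = 0.00927). EIF1AX encodes eIF1A, which works beside eIF1 on the scanning subunit, and had 1241, 1236 and 1294 against 1451, 1429 and 1502. It was higher in each (log2 fold change 0.22, SE 0.0563, adjusted p = 0.0243). EIF5, the GTPase-activating protein of eIF2, had a log2 fold change of 0.10 and did not pass (adjusted p = 0.365). EIF1AX lost its call in 7 of the 17 alternative analyses and EIF1 in 3, and the difference between these 2 factors was not tested.

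Among the 13 subunits of eIF3, the large scaffold on the small ribosomal subunit, 2 passed as higher and 1 as lower. EIF3F had 4846, 4706 and 4724 in shControl and 5953, 5125 and 5958 in shZDHHC20. All knockdown libraries were higher, replicate 2 by the least (log2 fold change 0.25, SE 0.0586, adjusted p = 0.0138). EIF3D, the subunit that can itself bind the cap of some mRNAs, had 3893, 3960.2 and 3896 against 4399.9, 4188 and 4678, again higher in each (log2 fold change 0.17, SE 0.0508, adjusted p = 0.0426). EIF3I had 4239, 4186 and 4281 in shControl and 3522, 3494 and 3791 in shZDHHC20. It was lower in each (log2 fold change -0.23, SE 0.0490, adjusted p = 0.00735). Apart from EIF3C, the other 9 subunits had log2 fold changes from -0.20 (EIF3G, adjusted p = 0.0642) to 0.07 (EIF3B). Subunits of 1 complex thus differed in direction, and the difference between subunits was not tested.

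No member passed in the other 6 roles. Of the eIF2 ternary complex, EIF2S1 (the subunit phosphorylated in the integrated stress response) had the smallest p, at a log2 fold change of -0.12 (adjusted p = 0.289). EIF2B2, of the eIF2B exchange factor, had 307, 299 and 326 against 356, 379 and 353. It was higher in each knockdown library, at a log2 fold change of 0.22 with an adjusted p of 0.126. For the poly(A)-binding proteins, PABPC1 had a log2 fold change of -0.08 (adjusted p = 0.558), which was 0.02 with quantile normalization and 0.03 without shZDHHC20 replicate 2, and PABPC4 one of 0.03 (adjusted p = 0.806). EIF6, which keeps the large subunit from joining too early, had -0.06 (adjusted p = 0.750). EIF5A encodes the hypusine-bearing factor that relieves stalled peptide bonds and had 7688, 7123 and 7443 in shControl and 5746, 7359 and 5876 in shZDHHC20. Replicates 1 and 3 were below all controls and replicate 2 among them, and the log2 fold change of -0.24 did not pass (adjusted p = 0.0666), while its paralog EIF5A2 was at 0.01 (adjusted p = 0.936). GSPT1, the release factor eRF3a, had 4713, 4688 and 4744 in shControl and 4300.3, 3454 and 4428 in shZDHHC20. It was lower in each, replicate 2 by the most (log2 fold change -0.22, adjusted p = 0.0800). A p that misses the threshold does not show an equal level: the 95% interval lay within a log2 change of 0.30 in either direction for 29 of the 39 factors that did not pass, and within 1.5-fold for 37, all but EIF3C and EIF4A1.

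Replicate 2 of shZDHHC20 bore on several of these values. It was the lowest of the 3 knockdown libraries for 33 factors and the highest for 13, and its median log2 gap to the mean of the other 2 was -0.11, beside -0.03 for all genes averaging 100 or more. Without it, 17 further factors passed, making 27 in all, or 55.1%, where 38.3% of genes averaging 100 or more passed. These included EIF5A, EIF4E, EIF4E2 and EIF3G. EIF5A had a log2 fold change of -0.35 (adjusted p = 3.37e-06, limma), where with all libraries the adjusted p was 0.0666. The library left out was the one that differed from the other 2 knockdown libraries for EIF5A. Its removal shrinks the spread, so this small p is no independent support. GSPT1 and EEF1A1 passed as well at smaller changes, GSPT1 at -0.11 instead of -0.22. The 10 factors called with all libraries were called without replicate 2 as well. What sets this library apart was not tested.

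Levels between factors were compared per kilobase of the longest principal transcript, since longer transcripts give more reads. Per kilobase in shControl, EEF1A1 was highest at 57959.8 normalized counts, followed by EIF4G2 (the cap-independent eIF4G homologue DAP5) at 26849 and EIF3K at 17337, and EEF2 stood at 10877. The value of EIF4G2 was taken over an annotated transcript of 1969 bases, while its exons cover 8655 bases. Its place above EIF3K therefore rests on the annotated length and is uncertain. EEF1A1 has principal transcripts of several lengths, and over the shortest of these it stood at 133853, still the highest. The eIF2B subunits were low, from 72.1 for EIF2B2 to 500.4 for EIF2B5, beside 405 to 1813 for the eIF2 subunits. EIF4E stood at 74.8 over an annotated transcript of 11523 bases, and EIF4EBP1 at 869 over one of 1020 bases, so the order of these 2 rests on the annotated length. EIF3F stood at 631 over its longest principal transcript and at 3795 over its shortest. EIF5A stood at 4909 and EIF5A2 at 182. Apart from EIF3C, the subunits of eIF3 ran from EIF3M at 597 to EIF3K. EIF3C was listed lower, at 140.3, but it shares its sequence with the near-identical copy EIF3CL, and its level is uncertain.

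Many mRNAs of the translation machinery begin with a 5′ terminal oligopyrimidine (TOP) tract, a C followed by a run of C and T, through which mTOR and LARP1 control their translation. Annotated starts were available for 39 of the 50 listed factors in RefSeq (GRCh38.p14). A TOP-like start, here a C at the first transcribed base with at least 4 further C or T on the coding strand, was found for 10 of the 39 (25.6%) and for 5.14% of all 27303 genes in that table. The starts of the 5 called factors that have one are shown, with that of EEF1A1, the most abundant factor, which was not called. The other 3 called core factors, EIF1, EIF1AX and EIF3I, had other starts. Each line gives 5 bases before the start and 20 from it, 5′ to 3′, and the capitals mark the pyrimidine run.
EEF2: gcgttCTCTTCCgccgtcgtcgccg
EEF1B2: cgggtCCTTTTTCCTCTCTTCagcg
EIF4A2: gctgtCTTTTCagtcgggcgctgag
EIF3F: gcctcCTTCTTTCTCgacaagatgg
EIF3D: gtttcCTCTTTTCCTggtttctcaa
EEF1A1: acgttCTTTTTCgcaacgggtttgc

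The windows lie at chr19:3985444-3985468 on the minus strand for EEF2, chr2:206159890-206159914 on the plus strand for EEF1B2 and chr3:186783572-186783596 on the plus strand for EIF4A2. Those of EIF3F, EIF3D and EEF1A1 lie at chr11:7987332-7987356 on the plus strand, chr22:36529147-36529171 on the minus strand and chr6:73521013-73521037 on the minus strand (GRCh38.p14). The run was longest in EEF1B2, at 16 bases. Of the 10 factors with such a start, 3 passed as lower (EEF2, EEF1B2, EIF4A2) and 2 as higher (EIF3F, EIF3D). Of the 28 tested factors with other starts, 4 passed. Among all genes averaging 100 or more, 24.6% of those with a TOP-like start passed and 21.6% of those with other starts. The factors with a TOP-like start therefore changed in both directions, and the difference from the other factors was not tested. A list of known TOP mRNAs among the factors was named from general knowledge and includes PABPC1, EIF3E, EIF3H and EEF1D with no matched start. It had 3 of 9 called (33.3%, 1 higher and 2 lower), against 17.5% of the other factors and 21.7% of all genes averaging 100 or more. This difference was not tested, and the 2 lower calls, EEF2 and EEF1B2, were lost with quantile normalization. EEF2K had another start, and EIF4EBP1 had no matched start and could not be searched.

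The palindrome CACGTG, the E-box to which MYC binds with MAX, was searched on both strands in the 300 bases around each start (250 before, 50 after), again without EIF4EBP1. It was found for 9 of the 39 factors (23.1%) and for 8.78% of all genes. The windows of the called factors that hold it are shown with the palindrome in capitals, because MYC mRNA is the transcript the study followed.
EEF2K: gggcggcCACGTGagcgcca
EIF3F: tctagctCACGTGgtgtata

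The first base of the palindrome lay 59 bases before the annotated start in EEF2K (window chr16:22206212-22206231, plus strand) and 68 bases before it in EIF3F. EEF2K fell and EIF3F rose, and the other 7 factors with the palindrome did not pass. This is 22.2% of the 9 factors with it, beside 7 of the 29 tested factors without it (24.1%) and 21.7% of all genes averaging 100 or more. A match is a description of these letters and no binding site shown.

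Around the factors stand their regulators and less abundant relatives, a list of 49 further genes of the same pathway. Of these, 9 passed (18.4%), 2 higher and 7 lower, beside 11.5% of all genes and 21.7% of those averaging 100 or more, and the median log2 fold change was -0.05. The balance of directions depended on the scaling, with 4 higher and 6 lower under quantile normalization and 6 higher and 4 lower with equal totals. The count was 4 without shControl 2 or 3, 20 without shZDHHC20 2 (10 higher, 10 lower), and 1 without the mean-variance trend. Among all genes, 1283 of 22249 and 1233 of 22213 passed without shControl 2 and 3, and 351 of 22189 without the trend. Without shZDHHC20 2, 38.3% of genes averaging 100 or more passed, so these counts moved with those of other genes. Of 12 genes of mTOR signalling and the kinases of the cap complex, 1 passed as higher and 3 as lower. MKNK2, which encodes the kinase MNK2 that phosphorylates eIF4E, had 6382, 5915 and 6210 in shControl and 8548, 8963 and 8473 in shZDHHC20. All knockdown libraries were higher, at 140.4% of control (log2 fold change 0.49, SE 0.0465, adjusted p = 2.42e-05). RHEB, the GTPase that activates mTORC1, had 1948, 1897 and 1876 against 1501, 1481 and 1605. It was lower in each (log2 fold change -0.32, SE 0.0556, adjusted p = 0.00224). LARP1, which binds the TOP start, had 8591, 8830.3 and 8856 against 7864, 7319.6 and 7579, lower in each (log2 fold change -0.21, SE 0.0442, adjusted p = 0.00822). MLST8, the mTOR subunit, was the fourth to pass.

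DPH3, needed to make the diphthamide residue of eEF2, had 719, 776 and 745 in shControl and 1148, 938 and 1109.6 in shZDHHC20. It was higher in each (log2 fold change 0.51, SE 0.0797, adjusted p = 0.00111) and was the only 1 of 10 other elongation and modifying factors to pass. EIF2AK4, the gene of the eIF2 kinase GCN2 that senses amino acid shortage, had 1156, 1196 and 1216 against 954, 861 and 992. It was lower in each (log2 fold change -0.35, SE 0.0674, adjusted p = 0.00457) and was the only 1 of 6 eIF2 kinases and phosphatase subunits to pass. EIF2D, of 11 other initiation factors and paralogs, PAIP2B, of 7 regulators of cap and poly(A), and PELO, of 3 release and rescue factors, were the other genes that passed, all lower. PAIP2B, at a log2 fold change of -0.59 (adjusted p = 0.0245), was the only gene of this list to meet the study's criteria.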

How the data were processed

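PANC-1 RNA was sequenced in 3 shControl and 3 shZDHHC20 libraries made with a directional kit. The submitters' processing notes name the build hg19; the aligner and counter are not given in the sources used here. The deposited table gives 1 value per gene and library, and its columns are headed NC and siZDHHC20 with numbers, taken here as shControl and shZDHHC20, where the labels name shRNA. Although the file's name gives FPKM, every value is a whole multiple (tolerance 0.01) of the smallest value of its library. The deposited values are therefore a signal that behaves as gene counts that the authors divided by 1 factor per library, called normalized counts here. The reads so implied were 16575546 to 18441049 per library. Counting error was not modelled.

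Gene IDs were named by a reference table (27175) or GENCODE 29 (219). Genes with a mean of at least 1 were fitted with limma 3.58.1 in R 4.3.3 on log2(value + 0.1), group only, with a mean-variance trend, and tested two-sided with Benjamini-Hochberg adjustment over 22189 genes. Fold changes are on that scale and understate the change of low genes. The fit was tested on simulated data. Ratios were tested by exact permutation with scipy 1.17.1. Levels per kilobase used the longest principal transcript of GENCODE 29. Named are all factors called, the smallest p in each role without a call, both genes of 8 pairs, the 3 pathway genes with the smallest adjusted p per direction, ZDHHC20 and markers. MLST8, EIF2D, PAIP2B, PELO, EIF5, EIF3G, EIF3B, EIF3K, EIF4G2 and EIF2B5 were named after their values were seen. The factors and lists were chosen with earlier results of these data known. The counting strand is not given, so reads of the 25 factors with exons overlapping a gene on the other strand (among the called ones EIF3I, EEF1B2, EEF2K and EIF4A2, and among others EIF4E, EIF4E2, EIF5A, EIF3G and EEF1A1) cannot be assigned with certainty. Alternatives were other pseudocounts (0.01, 1), no filter or a mean of at least 10, median-ratio and quantile normalization, no trend, a robust fit, a replicate block and each library left out, with equal totals and summed gene copies added after seeing the data.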

Additional observations from a re-analysis of the deposited data

How the results depend on the processing

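The number of factors called was 10 (3 higher, 7 lower) and lay within 1.5 times of that under the other pseudocounts, filters, median-ratio scaling, a robust fit, equal totals and summed copies. Quantile normalization gave 6 higher and 4 lower. Without a mean-variance trend it was 0, with 0 higher and 0 lower. Leaving out 1 library gave 2 to 27 factors, 0 to 12 higher and 2 to 15 lower. The most came without shZDHHC20 replicate 2 and the fewest without shControl replicate 1 or 3. The pathway list gave 9 genes, 1 without the trend and 4 to 20 with 1 library left out, and all genes gave 2541, 351 without the trend and 1233 to 4454 with 1 library left out. Same-numbered libraries did not deviate together (correlations -0.156 to -0.0771, and 0 of 6 libraries correlated best with their own number). This gives no sign that the numbers pair the samples, but with so few libraries a group it cannot exclude a pairing. A fit with the replicate block called 6 factors, 1 of them higher.

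Of the 49 factors, 16 changed sign under at least 1 alternative, none of them called, and the largest of their main log2 fold changes was 0.11 (EEF1D, -0.05 without shZDHHC20 replicate 2). Leaving out that library turned 10 of them. EIF4EBP2 was between -0.0414 (without shZDHHC20 replicate 3) and 0.1337 (without shZDHHC20 replicate 2), and below 0 also without shControl replicate 1 (-0.0026) or shZDHHC20 replicate 1 (-0.0207). EIF4G3 lay between -0.03142 and 0.03141 without shZDHHC20 replicate 1 and 2, and at -0.01296 without shControl replicate 2. EIF5A2 lay between -0.03818 and 0.08178 without shZDHHC20 replicate 3 and 2, and at -0.01448 without shControl replicate 2. EIF6 lay between -0.1775 and 0.02031 without shZDHHC20 replicate 2 and 3. With quantile normalization EIF4G1 was at 0.02785 and PABPC1 at 0.01918, and PABPC1 was at 0.03122 without shZDHHC20 replicate 2. The causes of these moves were not tested.

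With 3 libraries a group, changes of about 1.1-fold passed only for mRNAs with small spread. No count model was fitted, and the labels do not tie the libraries to separate cultures.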

Other observations

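EIF3C and its near-identical copy EIF3CL divided their signal differently from library to library. EIF3C had 310.2, 811 and 203 normalized counts in shControl 1 to 3 and 1032, 334 and 1292 in shZDHHC20 1 to 3, and EIF3CL had 51.5, 42.2 and 206 and 212, 720.3 and 42.3. Summed, they had 362, 853 and 409.5 against 1244, 1055 and 1335. The sum was higher in every knockdown library (log2 fold change 1.26, adjusted p = 0.0028, limma), where EIF3C alone had 1.04 with an adjusted p of 0.197. This sum was chosen after seeing the data, and how the authors' counting treats reads that match both copies is not given in the sources used here.

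EEF1A1P5, a processed pseudogene of EEF1A1, had 2251, 2375 and 2229 in shControl and 1931, 6693 and 2153 in shZDHHC20, with replicate 2 far above the others. In that replicate EEF1A1 was at its lowest, 227511. With its pseudogenes added, EEF1A1 had 259477, 260754 and 260519 in shControl and 246641, 234649 and 254206 in shZDHHC20, so replicate 2 remained the lowest.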
